A study of Homo sapiens and Mus musculus with 24 samples.

Results

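The regions described here are the BRG1 peaks that the hemogen knockout (KO) list holds and no wild-type (WT) BRG1 list does. BRG1, encoded by Smarca4, is the ATPase of the BAF (SWI/SNF) complexes, which slide or evict nucleosomes and so open promoters and enhancers. Hemogen is found in the nuclei of blood-forming cells, red-cell precursors above all, and acetylation of histone H3 at lysine 27 (H3K27ac) marks active promoters and enhancers. In the fetal liver, which is full of developing red cells at this stage, BRG1 is known to act at the globin loci and at other erythroid genes.

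All libraries used came from fetal livers of mouse embryos at day 14.5. BRG1 was precipitated from WT livers and from livers of the genotype labelled hemogen KO. Hemogen, through an antibody against the HA tag, and H3K27ac were precipitated from WT livers only. Each of these 4 groups had 2 libraries with a peak list each and 1 group list, all from bulk tissue. How hemogen was tagged or deleted is not in the labels, nor whether libraries came from separate animals, and in bulk liver a peak in fewer cells and a weaker peak in every cell cannot be told apart. Mapping and peak calling were done by the authors, and no peak list of an HA precipitate from untagged liver was used.

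Of the 13938 peaks in the KO BRG1 group list on the 19 autosomes and chromosome X, 1516 (10.9%) overlapped no peak in any of the 3 WT BRG1 lists by even 1 bp. They are called KO-only peaks below, and the other 12422 are called other KO peaks. These regions were chosen by the BRG1 peak calls themselves, so the number, height, fold and width of the KO-only peaks are given as a description, with no test. Absence from a list of called peaks is not absence of BRG1. The number depends on which WT lists were used. It was 4009 against WT library 2 alone, 2776 against WT library 1 alone and 1612 against the WT group list alone. Taking the peaks of 1 KO library in place of the group list left 64 for KO library 1 and 232 for KO library 2.

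The lists differ in length. The WT BRG1 lists held 26329, 21165 and 37655 peaks (library 1, library 2, group list), against 3205, 5592 and 13938 in the KO. The hemogen and H3K27ac group lists held 78360 and 167030. For scale, 41.6% of the peaks of WT BRG1 library 1 were absent from WT library 2, and 18.96% of those of library 2 from library 1, both above the 10.9% of the KO-only peaks; the list searched there was 1 library, not 3 lists. Within the KO, 47.7% of the peaks of library 1 were absent from library 2 and 71.1% of those of library 2 from library 1. The lists compared differ in length, and its part in these shares was not tested.

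The KO-only peaks were low and narrow and stood on little background. From the authors' fold and p-value the height of each summit was recovered as a whole number of fragments, together with the local background, which is in fragments after scaling to the depth of the call. Height is given before that scaling, so height and background are in unlike units. Height had a median of 20 fragments in the KO-only peaks (quartiles 17 and 23, n = 1493 peaks resolved) and 33 in the other KO peaks (27 and 40, n = 12329). Local background had a median of 2.00 and 4.54. Median width was 172 bp against 247 bp, and 14.7% of the KO-only peaks had the shortest width in the list, 142 bp, against 2.78% of the others. The authors' fold went the other way. Its median was 4.44 in the KO-only peaks (quartiles 3.92 and 4.86) and 3.89 in the others (3.32 and 4.51). The −log10 p, which grows with height as well as fold, had a median of 6.26 against 7.61.

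**Figure D1:**
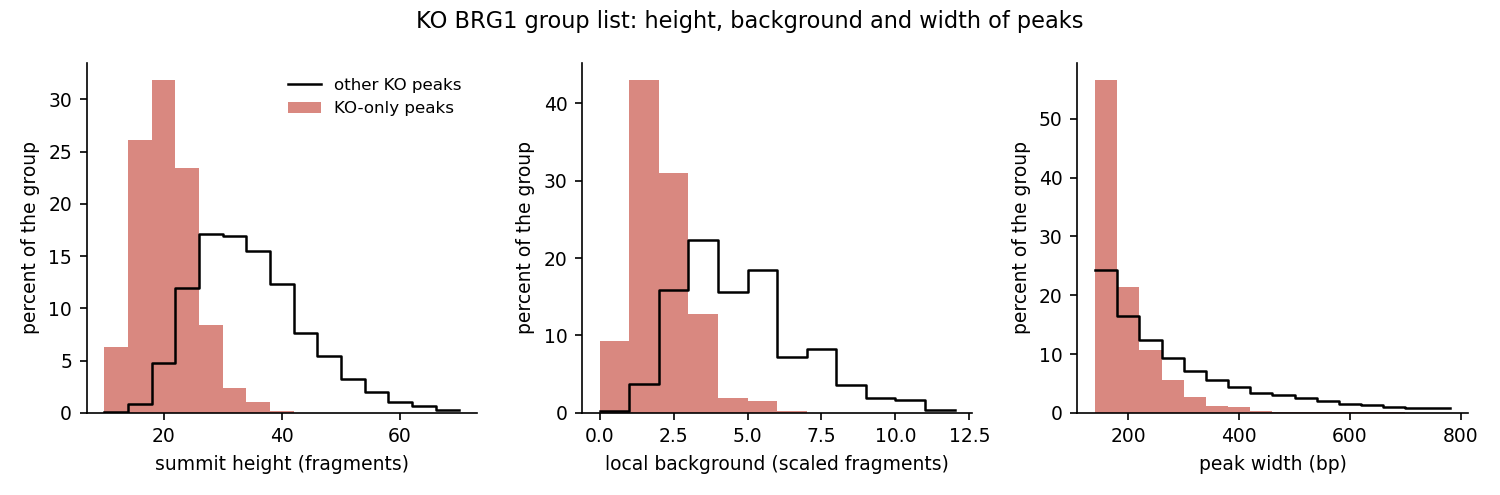
Height of the summit in fragments, local background in scaled fragments and width in bp of peaks in the KO BRG1 group list, as percent of each group per bin (red bars, KO-only peaks; black line, other KO peaks). Height and background cover only resolved peaks, 1493 KO-only and 12329 other. The red bars sit at low height, low background and small width, with median heights of 20 against 33 fragments. Not drawn are 3 KO-only peaks of 70 fragments or more, with a background of 12 or more, and 33, 91 and 482 other KO peaks beyond the axes of height, background and width.

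Sorting all KO peaks into deciles, or for height and background the 13822 resolved, showed how unevenly the KO-only peaks were spread. They made up 61.8% of the lowest decile of height, 25.6% of the second, and 0.217% of the highest. For local background the share was 60.01% in the lowest decile and 0.217% in the highest. For width it was 27.7% and 0.359%. For −log10 p it was 16.4% in the lowest decile, 18.8% in the next, and 0.646% in the highest. For fold it was 1.51% in the lowest decile, 20.4% in the ninth and 14.3% in the highest. KO-only peaks were thus few among the tall or broad KO peaks and common among those whose fold rests on few fragments over a low background. The 1st percentile of local background was 3.599 scaled fragments in the WT BRG1 group list, against 1.00 in the KO group list. Each list is in its own scaled units, and the part of this difference in the KO-only calls was not tested.

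**Figure D2:**
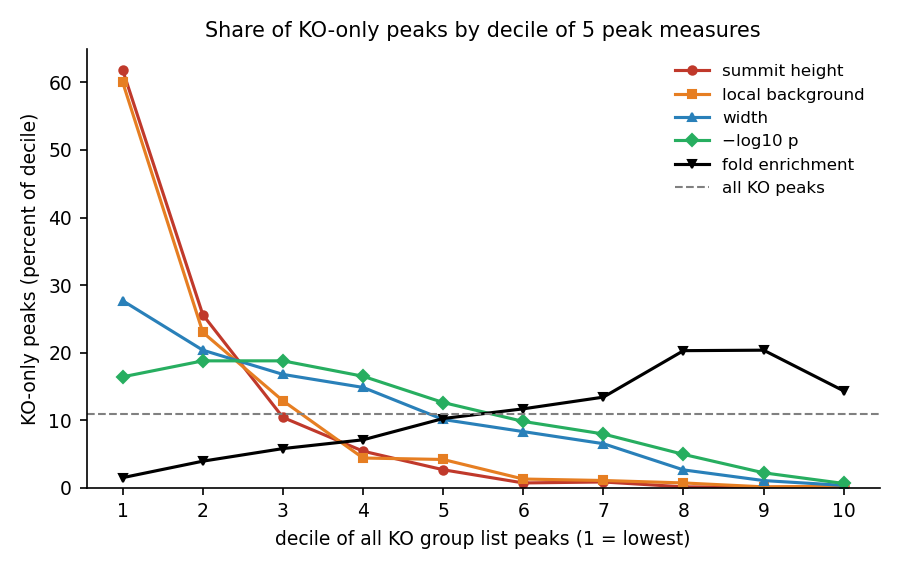
KO-only peaks as percent of each decile of all KO group list peaks, sorted from low to high by summit height, local background, width, −log10 p or fold. For height and background the deciles hold only the 13822 peaks that could be resolved. The dashed line marks their share of the whole list, 10.9%. Height and background start near 60% in the lowest decile and are below 1% in the highest, while the line for fold reaches 20.4% in the ninth decile.

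Few KO-only peaks were called in a single KO library. A peak of KO library 1 overlapped 43 of the 1516 (2.84%), a peak of KO library 2 overlapped 153 (10.1%), and 4 (0.264%) were met by both. Over all KO group list peaks these shares were 21.2%, 36.2% and 11.5%. At least 1 KO library held 192 KO-only peaks (12.7%, 95% Wilson interval 11.1 to 14.4, counting error only), where 45.9% of all KO peaks were so held. The group list is named under both libraries in the labels, so this is no independent support. Among the other KO peaks of like fold and width, 29.5% were held by a KO library. At like −log10 p and width this was 24.2%. At like height and background it was 22.0%, beside 12.5% for the KO-only peaks that could be resolved. The 1324 KO-only peaks in neither library list had a median height of 19 fragments, and the 192 in a library list had 23. A further measure of strength gave a like picture. A −log10 q of 5 or more was reached by 102 KO-only peaks (6.73%), against 28.7% of all KO peaks.

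The 4 KO-only peaks called in both KO libraries fell into 2 kinds. The peak at chr9:25481719-25482097 had authors' folds of 5.00 and 5.23 in KO libraries 1 and 2 and 7.11 in the group list. It ended 10 bp from a WT BRG1 peak. It overlapped a peak of hemogen library 2 (fold 5.36) and one of the H3K27ac group list (fold 2.52). The peak at chr10:20149314-20149731 had folds of 5.91 and 3.99 in the KO libraries and 5.94 in the group list, lay 83 bp from a WT BRG1 peak, and overlapped a hemogen peak in both hemogen libraries (folds 3.56 and 3.54). Both of these are thus beside a WT BRG1 peak and on WT hemogen. The other 2 had low folds on a very high background. The peak at chr11:3193033-3193690 had folds of 2.26 and 1.98 in the libraries and 1.92 in the group list. Its height was 154 fragments before scaling, over a background of 49 scaled fragments. The peak at chr17:39847604-39847859 had folds of 1.77 and 1.86 in the libraries and 1.42 in the group list. Its height was 219 fragments before scaling, over a background of 95 scaled fragments. Neither overlapped a hemogen or H3K27ac peak of any list. Together with chr1:183299365-183299515 (fold 2.03, in the list of KO library 2) they are the 3 KO-only peaks of fold under 2.5, which have a median background of 49 against 2.00 over all KO-only peaks. This trio was picked out after its values were seen.

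KO-only peaks met WT hemogen less often than the other KO peaks did. A peak of the hemogen group list overlapped 795 of the 1516 (52.4%, 95% Wilson interval 49.9 to 54.9), against 12233 of the 12422 other KO peaks (98.5%, 98.2 to 98.7) and 93.5% of all KO peaks. Hemogen library 1 overlapped 32.1% of the KO-only and 93.3% of the other KO peaks, and hemogen library 2 22.1% and 89.0%. Over all KO peaks, hemogen libraries 1 and 2 overlapped 86.7% and 81.7%. The 2 hemogen libraries differ by 10.0 points for the KO-only peaks, and the gap between KO-only and other KO peaks was 61.2 and 66.9 points in libraries 1 and 2. Peaks are not replicates of a condition, and no test over peaks was made. Both hemogen libraries overlapped the same KO-only peak in 215 cases (14.2%), and the same KO peak in 78.2% of the whole list.

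H3K27ac of WT liver showed the same order with a smaller gap. The H3K27ac group list overlapped 929 KO-only peaks (61.3%, 58.8 to 63.7) and 95.1% of the other KO peaks, with 91.4% over all. H3K27ac library 1 overlapped 36.7% and 81.2%, and library 2 28.2% and 74.2%. For all KO peaks, H3K27ac libraries 1 and 2 overlapped 76.3% and 69.2%. The gap was 44.4 and 46.1 points in libraries 1 and 2, where the 2 libraries differed by 8.58 points for the KO-only peaks. Both H3K27ac libraries overlapped 303 KO-only peaks (20.0%), against 61.7% of all KO peaks. H3K27ac in KO liver was not analysed here, so whether a KO-only peak is acetylated in the KO is not known from these lists.

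Weighting by fold and width changed the hemogen gaps little and the H3K27ac library gaps more. Weighting by height and background narrowed the library gaps of both marks, by over 20 points for H3K27ac and by less for hemogen. Before weighting, the gaps in libraries 1 and 2 were 61.2 and 66.9 points for hemogen and 44.4 and 46.1 points for H3K27ac. Other KO peaks reweighted to the fold and width quintiles of the KO-only peaks overlapped the hemogen group list in 97.0% and the H3K27ac group list in 90.2%. For libraries 1 and 2 this weighting gave 89.3% and 83.6% for hemogen and 69.3% and 60.1% for H3K27ac. With quintiles of recovered height and background in their place, an alternative added with the data in view, the group list shares were 94.6% and 86.2%, beside 52.8% and 61.8% for the KO-only peaks that could be resolved. For single libraries this closer match moved the other KO peaks further. It gave 81.9% and 72.2% for hemogen libraries 1 and 2, beside 32.5% and 22.3% for KO-only peaks, which left gaps of 49.4 and 49.8 points. For H3K27ac libraries 1 and 2 it gave 58.3% and 48.3%, beside 37.1% and 28.5%, which left gaps of 21.2 and 19.8 points. Within a quintile heights can still differ, and the rule itself took away every peak that met BRG1 in the same WT livers.

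**Figure D3:**
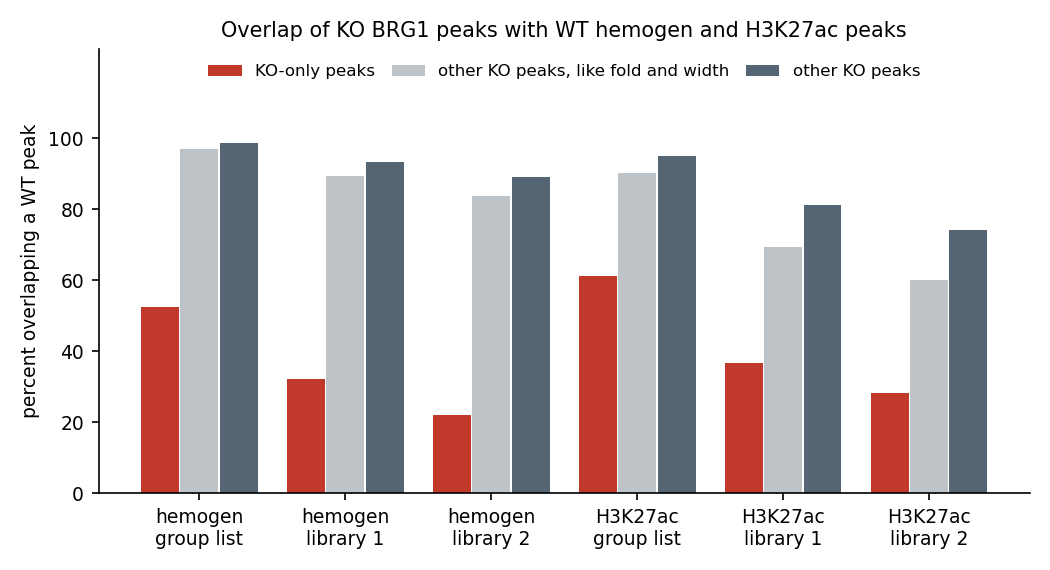
Percent of KO-only peaks (red), of other KO peaks weighted to like fold and width (light grey) and of all other KO peaks (dark grey) that overlap a WT peak of hemogen or H3K27ac, for each group list and each library. The red bars are the lowest in all 6 lists, from 22.1% in hemogen library 2 to 61.3% in the H3K27ac group list.

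Taking both WT group lists together, 525 KO-only peaks (34.6%) overlapped hemogen and H3K27ac, 270 (17.8%) hemogen alone, 404 (26.6%) H3K27ac alone and 317 (20.9%) neither. Among all KO peaks these shares were 87.3%, 6.14%, 4.08% and 2.45%. Of the 342 KO peaks that lay on neither mark, 317 were KO-only, and 25 were among the other KO peaks. The KO-only peaks on both marks had the highest median height of the 4 classes, 22 fragments, and those on neither the lowest, 16 fragments. Support by a KO library was 18.1% in the class with both marks, 13.7% with hemogen alone, 8.91% with H3K27ac alone and 7.57% with neither. Peaks on neither mark had a median fold of 4.51, against 4.32 in those on both, over a median background of 1.31 against 2.13. The hemogen share was higher at higher −log10 p. From the lowest to the highest quintile, hemogen overlapped 47.9%, 50.0%, 55.3% and 62.8% of KO-only peaks in the first 4 and 28 of 40 in the fifth, while the other KO peaks stayed between 97.5% and 99.6%. The H3K27ac share of KO-only peaks had no such steady order, at 61.7%, 57.1%, 62.6%, 66.7% and 72.5%.

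Where a KO-only peak met a hemogen peak, that peak was weaker and narrower than those under the other KO peaks. Its median fold was 3.46 and its median width 746 bp, against 5.09 and 2391 bp under the other KO peaks and 3.33 and 382 bp over the whole hemogen group list. By −log10 p it lay at a median percentile of 66.8 of that list, against 92.7. For H3K27ac the median percentile was 77.0 against 94.5, and the width 459 bp against 845 bp. The hemogen peaks under KO-only peaks thus had a fold near the median of the hemogen list but were wider and higher by −log10 p than its middle, and those under the other KO peaks were wider and higher still. Of the 795 KO-only peaks on hemogen, 330 (41.5%) shared their hemogen peak with a WT BRG1 peak elsewhere along it, and 465 lay on a hemogen peak that no WT BRG1 peak touched. For H3K27ac, 252 of 929 (27.1%) shared the peak with WT BRG1. The like shares for the other KO peaks and for the whole mark lists were not taken. No trait particular to KO-only peaks is therefore read from these counts.

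Where a KO-only peak and a hemogen peak overlapped, the distance between summits is bounded by their widths and is given as a description. The distance to the nearest hemogen summit had a median of 179 bp in the group list, 146 bp in hemogen library 1 and 129 bp in library 2. For other KO peaks it was 314, 239 and 205 bp. Hemogen summits within 100 bp were found for 32.8% of these KO-only peaks in the group list and for 24.1% of the other KO peaks. The hemogen peaks under the other KO peaks were broader, as given above, and the part of their width in these distances was not tested.

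Distances from KO-only peaks to WT BRG1 peaks ran from touching to beyond 100 kb. By the rule every other KO peak overlaps WT BRG1, so the list gives no like share for these distances. No reference set was drawn, and no particular nearness is read from them. The gap to the nearest peak of any WT BRG1 list had a median of 1176 bp (quartiles 271 and 15016 bp). Within 100 bp lay 199 (13.1%), within 1 kb 729 (48.1%), within 10 kb 1064 (70.2%) and within 100 kb 1431 (94.4%), which left 85 (5.61%) at 100 kb or more. For 182 of the 729 within 1 kb (24.97%) the nearest WT peak was itself met by another KO group peak. Of all WT group list peaks, 24.6% (9261) were met by a KO group peak. The bases differ, since the nearest WT peak came from the group list for 571, from library 1 for 114 and from library 2 for 44. Another KO peak lay within 1 kb of 333 of all KO-only peaks (22.0%), where this held for 55.5% of all KO peaks. The 3 KO-only peaks nearest to WT touched a WT peak with no base shared. They lay at chr4:140860090-140860301, chr5:142816945-142817086 and chr6:71823561-71823737, with folds of 3.57, 3.97 and 4.42, and each overlapped the hemogen group list. The 3 other KO peaks of smallest overlap shared 1 bp with WT, at chr4:63402298-63402478, chr7:141142519-141142674 and chr9:107572229-107572370, with folds of 4.70, 3.62 and 2.84. Those on chromosomes 7 and 9 also overlapped the hemogen group list, and the one on chromosome 4 overlapped hemogen library 1. Each peak just outside the rule overlapped the H3K27ac group list, while just inside it only the chromosome 4 peak did. For these named peaks the folds on either side of the rule overlapped. Their −log10 p was 6.43, 5.45 and 9.03 just inside the rule and 6.58, 4.33 and 4.70 just outside it.

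KO-only peaks far from WT BRG1 met H3K27ac less often than near ones, and met hemogen less often beyond 1 kb than under it. Under 1 kb from a WT peak, 77.9% of KO-only peaks overlapped the H3K27ac group list. At 1 to 10 kb this was 61.5%, at 10 to 100 kb 37.3% and at 100 kb or more 21.2%. For hemogen the shares were 66.4%, 39.7%, 39.0% and 41.2%, so that beyond 1 kb they lay within 2.2 points of each other. Both libraries of a mark gave a like order for the first step: hemogen library 1 went from 40.6% under 1 kb to 23.6% at 1 to 10 kb, and library 2 from 28.7% to 17.0%. Beyond that the hemogen libraries went opposite ways, library 1 to 24.3% and 27.1% and library 2 to 15.5% and 14.1%. H3K27ac library 1 went from 49.5% to 11.8% between the nearest and the farthest class, and library 2 from 39.0% to 5.88%. Peaks on neither mark made up 6.04% of the nearest class and 51.8% of the farthest. Median height along the same axis was 22, 19, 17 and 15 fragments, and median background went from 2.32 to 1.08 scaled fragments. The part of height in these shares was not tested. Wider windows raised both marks, since 80.4% of KO-only peaks had a hemogen peak and 79.0% an H3K27ac peak less than 1 kb away, against 97.8% and 97.1% of all KO peaks.

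**Figure D4:**
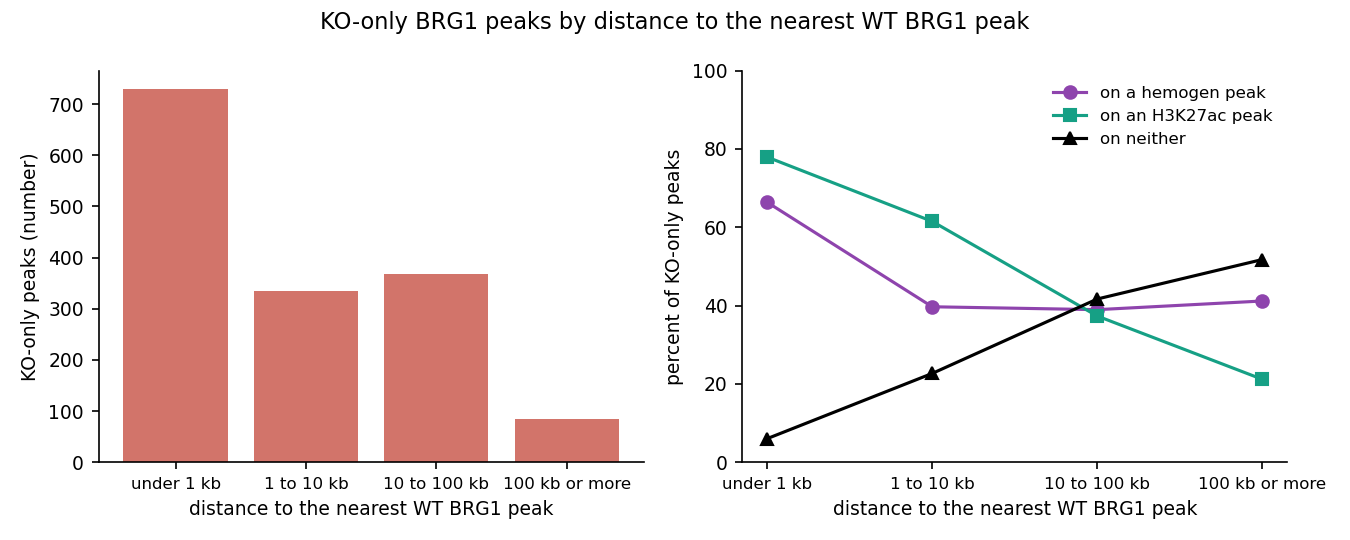
Left, number of KO-only peaks by distance to the nearest WT BRG1 peak. Right, percent in each distance class that overlap the WT hemogen group list, the WT H3K27ac group list or neither. Of the 1516 peaks 729 lie under 1 kb from a WT peak, and H3K27ac goes from 77.9% there to 21.2% at 100 kb or more.

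The 10 KO-only peaks of highest fold ran from 6.67 to 7.40. No gene is assigned here, since no mouse annotation was used, and positions are 1-based. The highest fold, 7.40, belonged to chr11:3132298-3132440, a 143 bp peak of 24 fragments in neither KO library list and on neither mark. The next, 7.31 at chr18:73762347-73762742, was also called in KO library 2 (fold 5.58) and lay on neither mark. The third, 7.28 at chr5:104571748-104571894, lay 655 bp from WT BRG1 and overlapped hemogen library 1 (fold 4.70) and H3K27ac library 1 (fold 4.46). The fourth is the chromosome 9 peak described above. The others were chr14:47569394-47569579 (7.02), chr10:84701164-84701402 (6.78), chr8:71366829-71366996 (6.71), chr13:67306091-67306388 (6.67), chr15:59777577-59777810 (6.67) and chr9:94694774-94694955 (6.67). Of the 10, 6 overlapped the hemogen group list, 5 the H3K27ac group list and 4 neither. A KO library held 4, and 5 lay under 1 kb from WT BRG1. Their heights were 20 to 31 fragments, so even the highest folds rest on few fragments.

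By −log10 p the strongest KO-only peak was chr8:71366829-71366996, at 13.2. It had 31 fragments before scaling, over a background of 2.00 scaled fragments, and a fold of 5.57 in KO library 2. Hemogen folds there were 4.41 and 3.38 in hemogen libraries 1 and 2, and the H3K27ac fold was 4.71 in H3K27ac library 1. It ended 532 bp from a peak of WT BRG1 library 1. The next were chr2:152399056-152399314 (12.3), chr10:93641808-93642306 (12.2), chr8:122269409-122269614 (12.2) and the chromosome 10 peak found in both KO libraries (11.8). All 5 overlapped both mark group lists, and 4 of them lay under 1 kb from a WT BRG1 peak. Of the 102 KO-only peaks with a −log10 q of 5 or more, 66 overlapped hemogen (64.7%, beside 52.4% of all KO-only peaks). H3K27ac overlapped 72 of them (70.6%, beside 61.3%), and 19 lay on neither mark (18.6%, beside 20.9%). Under 1 kb from WT lay 67 of the 102, where 48.1% of all KO-only peaks did.

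The 5 widest KO-only peaks measured 559 to 668 bp. The widest, chr14:45219465-45220132, had a fold of 6.41 in the group list and 4.38 in KO library 2, lay 88.1 kb from WT BRG1 and met neither mark. The chromosome 11 peak of high background came next. Then followed chr14:55762117-55762729 (613 bp, on H3K27ac), chr10:79554393-79555002 (610 bp, on both marks) and chr1:183296475-183297033 (559 bp, on both marks).

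The farthest KO-only peak from any WT BRG1 peak was chr5:48372330-48372507, 1643 kb away. Hemogen was called there in both libraries (folds 2.88 and 5.40) and so was H3K27ac (2.91 and 5.06). Its BRG1 fold was 5.45 in the KO group list, with 21 fragments and no peak in either KO library. At chr9:47133860-47134062, 850 kb from WT BRG1, KO library 2 had a fold of 4.99, hemogen 4.45 and 4.36, and H3K27ac 2.98 and 3.17. At chr9:9238774-9239063, 1196 kb away, KO library 1 had a fold of 4.96 and hemogen library 1 of 3.36, with no H3K27ac peak. The others of the 5 farthest, the chromosome 17 peak of high background and chr10:31608840-31608998 (fold 3.76), met neither mark. Of the 85 KO-only peaks at 100 kb or more, 35 overlapped hemogen, 18 H3K27ac and 44 neither, and 12 were in a KO library list.

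The single KO libraries gave peaks of the same kind. Of the peaks of KO library 1, 64 (2.00%) met no WT BRG1 list, and of those of KO library 2, 232 (4.15%). Hemogen overlapped 60.9% and 61.6% of them, against 99.5% and 99.1% of the peaks of the same libraries that met WT BRG1. H3K27ac overlapped 53.1% and 60.3%, against 97.8% and 97.1%. The absent peaks again had the higher median fold, 5.07 against 4.45 in library 1 and 5.09 against 4.52 in library 2, and the smaller width, 192 against 252 bp and 222 against 285 bp. In both libraries the hemogen share of the absent peaks lay 38.5 and 37.4 points below that of the others, while the 2 libraries differed by 0.700 points. Against 1 WT library of the same number alone, hemogen overlapped 81.7% and 86.9% of the absent peaks of KO libraries 1 and 2. H3K27ac overlapped 77.7% and 83.1% of them. These shares thus depend on which WT lists are searched, and the number and length of those lists changed together here. For the KO group list, the WT group list alone gave 54.3% for hemogen and 62.4% for H3K27ac. All 3 WT lists gave 52.4% and 61.3%. For scale, the peaks of WT library 1 missing from WT library 2 overlapped hemogen in 92.5%, those of WT library 2 missing from library 1 in 94.9%, and their median fold was lower than that of the shared peaks, 3.76 against 4.42 and 3.99 against 4.27. H3K27ac overlapped 65.2% and 66.3% of these WT peaks, below the KO values against 1 WT library, while hemogen was above them. Between the KO libraries, absent peaks overlapped hemogen in 97.6% and 96.6%, with median folds of 4.64 and 4.61 against 4.30 and 4.39 in the shared peaks.

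KO-only peaks were found on every chromosome examined. Their share of the KO peaks of a chromosome ran from 8.29% on chromosome 9 to 15.7% on chromosome 18, beside 10.9% over all. On chromosome 18, where 54 of 345 KO peaks were KO-only, 33.3% lay on neither mark, and on chromosome 19 this was 10.9% of 55. Runs of 3 or more KO-only peaks less than 50 kb apart numbered 68 and held 242 of the 1516 (15.96%). The like share over all KO peaks was not taken, so no clustering particular to KO-only peaks is read from this. Another KO peak lay within 1 kb of 22.0% of KO-only peaks and of 55.5% of all KO peaks. A run at chr4:62496050-62524995 held 7, all on hemogen and on H3K27ac, among 16 KO peaks in 28.9 kb. Runs of 6 lay at chr10:80038380-80139515, chr14:25487770-25537018 and chr2:153475313-153592729. Each had 6 peaks on H3K27ac and 3 on hemogen, and they held 19, 13 and 25 KO peaks in all. The run with 7 on chromosome 18, at chr18:35814786-35879107, had 5 on hemogen and 2 on H3K27ac. These runs were picked for their number of peaks, and no test was made of them.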

How the data were processed

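The authors deposited peak lists without headers in the narrowPeak layout, 1 per library and 1 per group. Each peak carries the authors' fold enrichment (a ratio to local background), −log10 p, −log10 q and a score, which is 10 times −log10 q without its decimals in the deposited files, and a summit. The submitters' processing notes list MACS2 2.2.7.1, Bowtie2 2.3.5, Picard 2.21.4 and SAMtools 1.9 without saying what each did. For filters, controls and build, nothing is given in the sources used here. Peaks on chromosome 1 reach 195241899, which fits mm10 (GRCm38); the build is inferred. Depth per library is unknown from the lists.

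Members and lists were chosen with earlier results of these data known. Intervals sharing 1 bp counted as overlapping. Distances are between edges. Scaled height and background were solved from fold, read as (scaled height + 1)/(background + 1), and p, read as an upper Poisson tail. Both readings are assumed. Scaled heights were whole multiples of 1 factor (0.617 for the KO group list), within 0.01 fragments, for 100% of peaks in the 6 BRG1 lists. The heights printed are scaled heights divided by this factor, while backgrounds stay scaled. For 99.2% of KO group peaks 1 solution was left. Overlap, distance and height scripts were tested on simulated data. Regions named are the 10 of highest fold, 5 of highest −log10 p, all in both KO libraries, 5 widest, 5 farthest from WT and 3 on each side of the rule. Runs were named for their size after their values were seen. Gene lists, annotation and sequence were planned but a mouse reference was not used here. Calculations ran in Python 3.11.15 with pandas 2.3.3, NumPy 2.4.6 and SciPy 1.17.1, plots in Matplotlib 3.10.9. The 12 K562 samples were not analysed here.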

Additional observations from a re-analysis of the deposited data

Results flagged for a closer look

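On chrUn_JH584304, an unplaced sequence left out above, KO BRG1 library 1 had 4 peaks and KO BRG1 library 2 had 10, a signal outside the chromosomes compared, against 0 in both WT BRG1 libraries and in the KO group list, so that none of them is a KO-only peak.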

How the results depend on the processing

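The number of KO-only peaks, 1516 (10.9% of the list), was 102 (2.55%) at a minimum −log10 q of 5 on the KO list, 2472 (17.7%) at that minimum on the WT lists and 787 (5.65%) at 1 kb or more from WT. Its share was 13.9% with 50% overlap of the shorter interval, 11.6% against the WT group list and 15.8% against the 2 WT library lists. Taking the list of 1 BRG1 library in place of all lists of its group, which drops the group list as well, gave 64 to 4009 (2.00% to 28.8%). The hemogen share of 52.4% was 60.8% with 50% overlap, 64.7% and 66.9% at a −log10 q of 5 on the KO and the WT lists, 39.5% at 1 kb or more and 64.0% against the WT library lists. With 50% overlap of the mark, a −log10 q of 5 on the mark and the KO summit inside the mark it was 44.3%, 35.9% and 43.5%, where the last 2 gave 96.0% and 96.3% for other KO peaks. With the list of 1 BRG1 or hemogen library in place of its group's lists it ran from 22.1% to 78.7%. The H3K27ac share of 61.3% was 70.6% and 71.0% at a −log10 q of 5 on the KO and the WT lists, 45.9% at 1 kb or more, 68.9% against the WT library lists, and 54.2%, 41.2% and 52.7% under the 3 rules on the mark. With the list of 1 BRG1 or H3K27ac library in place of its group's lists it was 28.2% to 78.5%. Support by a KO library, 12.7%, was 34.3% and 18.2% at a −log10 q of 5 on the KO and the WT lists. With the list of 1 BRG1 library in place of its group's lists it was 1.72% to 22.4%. Where that was a KO library, support means the other KO library. The median distance to WT, 1176 bp, was 6258 bp at a −log10 q of 5 on the WT lists. The cause of these moves was not tested. Other strata moved the hemogen share of other KO peaks from 97.0% to 98.0% (−log10 p) and 94.6% (height and background), and their H3K27ac share from 90.2% to 94.2%, 92.3% (−log10 p and width) and 86.2%. With the replicate block, which pairs libraries by number alone, 11.3% of the peaks of a KO library were absent from a WT library, against 10.4% over all 4 pairs. Without the 3 peaks of fold under 2.5 the number was 1513. Few fragments stood behind most KO-only peaks, a median of 20 over the 1493 resolved, and no detection limit was measured in the WT.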
